A study of Mus musculus with 7 samples.

Results

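The 178 genes described here are odorant receptor genes, chosen by their counts. A gene was taken when its symbol began with Olfr and when it summed to at least 10 UMIs (unique molecular identifiers, 1 per captured transcript) over the kept cells of 6 libraries. The rule took 178 of 1135 Olfr genes among 32932 listed genes. Another 468 Olfr genes had 1 to 9 UMIs and 489 had none. The chosen receptors held 13771 UMIs, 92.0% of all Olfr UMIs, and 1193 Olfr UMIs lay outside them. Because total UMIs picked the receptors, the totals below are a description and carry no test.

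Whole noses of mouse embryos at embryonic day 14.5 had been profiled by droplet single-cell RNA sequencing. Per the labels' protocols, 5 noses came from wild-type (WT) CD1 IGS mice and 1 from a ProKR2iCre/R26tdTomato embryo, which carried the allele Prokr2em1(cre)Cfe, named with the background B6;SJL, and the reporter allele Gt(ROSA)26Sortm14(CAG-tdTomato)Hze. In that embryo, Cre is made from the gene of prokineticin receptor 2 and switches on a red reporter, and its cell suspension was run both sorted and unsorted. Its 2 libraries are not marked as sorted or unsorted in the sample labels. File names call library 1 unsorted and library 2 sorted, which was not used for grouping. The libraries of that nose were given singly as ProKR2iCre library 1 and library 2, since they are not replicates of each other. Cells were frozen and thawed before capture. WT replicates 3 and 4 shared 7386 barcodes, against at most 34 for any other pair of libraries, and replicate 3 was left out, so that n = 4 for WT. Total depth ran from 16773781 to 89800259 UMIs per library. A cell was kept with 500 or more genes and no more than 10% mitochondrial UMIs, which left 31465 cells in all and 1111 to 10496 per library.

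Odorant receptors are G protein-coupled receptors in the cilia of olfactory sensory neurons. Each mature neuron settles on a single receptor gene and a single allele of it, out of a family spread over many genomic clusters. Receptor protein also takes part in sorting the neuron's axon to its glomerulus in the olfactory bulb. Class I receptors, the family first described in fish, lie together in a cluster on mouse chromosome 7, and class II receptors lie in the other clusters.

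Coding stretches of 6 receptors show how unlike the sequences behind these counts are. They are the 4 receptors that stood highest in olfactory neuron-like cells and, last, a pair that cannot be told apart with confidence. Each line gives 60 bases from the GENCODE M21 annotation of GRCm38, and capitals mark the 6 codons of the conserved motif at the inner end of the third membrane span.
Olfr15: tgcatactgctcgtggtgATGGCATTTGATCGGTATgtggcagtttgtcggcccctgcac
Olfr231: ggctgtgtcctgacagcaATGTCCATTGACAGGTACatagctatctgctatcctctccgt
Olfr1262: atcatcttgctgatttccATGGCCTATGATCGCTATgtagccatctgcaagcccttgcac
Olfr571: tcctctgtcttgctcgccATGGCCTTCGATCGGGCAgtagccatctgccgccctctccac
Olfr329-ps: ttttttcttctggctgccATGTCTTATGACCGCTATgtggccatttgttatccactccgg
Olfr325: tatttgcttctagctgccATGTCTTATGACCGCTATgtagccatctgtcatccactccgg

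The motif was found in 166 of 178 receptors (93.3%), against 95.6% of 1134 Olfr coding sequences. Over whole coding sequences, Olfr15 shared 54.6% of aligned bases with Olfr231, 53.4% with Olfr571 and 56.6% with Olfr1262. Olfr329-ps and Olfr325 shared 95.9%. Among 176 receptors with a match in the family, 33 had another Olfr gene at 95% or more of aligned bases, and their counts are uncertain for that reason. They held 3529 UMIs, of which 1991 belonged to Olfr1369-ps1, whose nearest relative, Olfr263, was 98.1% identical and had 1 UMI.

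Split by where their UMIs lay, the receptors fell into 2 kinds that also differed in counts per cell (plot of UMIs per cell against cells). The first kind was seen in few cells at high counts: 130 receptors had at least 50% of their UMIs in cells of the olfactory neuronal lineage. They were seen in a median of 3 cells with a median of 12.0 UMIs per cell that held any, and a median of 90.9% of a receptor's UMIs came from a single cell. The second kind was seen in many cells at low counts. Its 48 receptors had under 50% of their UMIs in the lineage, a median of 25 cells and a median of 1.07 UMIs per cell. The second kind held 4646 UMIs, 33.7% of the receptor total.

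**Figure D1:**
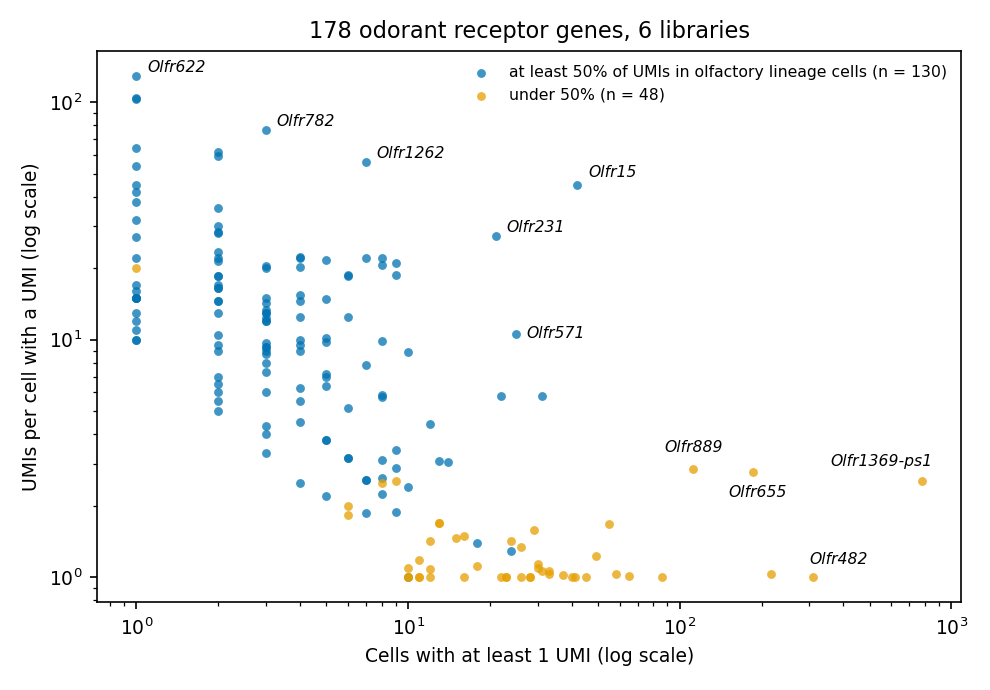
Each point is 1 of 178 receptors, with the number of kept cells holding at least 1 UMI on the x axis and the mean UMIs per such cell on the y axis, both on log scales, over 6 libraries. Blue points are the 130 receptors with at least 50% of their UMIs in olfactory lineage cells and orange points the 48 others; Olfr15, with 42 cells, lies far from both crowds, and Olfr1369-ps1 lies at the right with 779 cells.

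Counts of captured 3′ ends were not divided by gene length, so an order of receptors here is an order of captured molecules. Olfr1369-ps1 and Olfr15 held 28.1% of all receptor UMIs, the first 10 receptors 48.7% and the first 50 76.1%. At the other end, 23 receptors were seen in a single cell, 39 in a single library and 69 had at least 90% of their UMIs in 1 cell. Only 21 receptors were seen in all 6 libraries, and 2 of these, Olfr15 and Olfr78, were of the first kind. These 2 were singled out after their values were seen, and Olfr78 shares exon sequence with Olfr560. Olfr622, a class I receptor, shows how far 1 cell could carry a gene: its 129 UMIs came from 1 cell of WT replicate 1. At the 10 UMI minimum lay Olfr1066, Olfr1231, Olfr1392, Olfr1393, Olfr1508, Olfr394, Olfr644 and Olfr726, in 1 to 10 cells each. Olfr1042, Olfr1178, Olfr1366, Olfr506, Olfr531, Olfr649 and Olfr748, in 1 to 9 cells each, missed it with 9 UMIs.

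In the genome the 178 receptors lay on 16 chromosomes and in 40 of the 50 groups that Olfr genes form when genes within 1000000 bases of each other are joined. The class I group, chromosome 7 from 102476579 to 105369355 on GRCm38, held 31 receptors, 24.03% of its 129 Olfr genes. The largest group, chromosome 2 from 85330779 to 90403897, held 25 receptors, 11.01% of its 227 genes. At least 1 annotated transcript reached 1200 bases, longer than the coding sequence, for 97.8% of the receptors and 81.6% of the 489 Olfr genes with no UMI. A 3′ library counts a gene by its annotated end, so a gene annotated by its coding part alone can be missed. The part of annotation in which receptors were seen was not tested.

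Receptor UMIs were densest in olfactory neuron-like cells, a class built without any Olfr gene. These 642 cells met 9 of the 10 markers fixed for olfactory sensory neurons (Gng8, Gng13, Omp, Rtp1, Cnga2, Adcy3, Gnal, Lhx2 and Ebf2), and Stoml3 fell short. They held 8929 receptor UMIs, or 1105.77 CPM (counts per 1000000 UMIs; exact Poisson interval 1082.95 to 1128.95, counting error only). That pooled value rests on ProKR2iCre library 2, which gave 5935 of the UMIs, and was 720.6 CPM without it. By library the level was 743.9, 359.1, 434.2 and 2499 CPM in WT replicates 1, 2, 4 and 5, 971.4 CPM in library 1 and 1514 CPM in library 2. The value of WT replicate 5 rests on 1 cell, with 386 of its 474 UMIs. The first kind of receptor reached 1080.63 CPM there and 18.7 CPM in olfactory progenitor-like cells. It did not pass 4.79 CPM in any class outside the lineage. The kinds were split by where their UMIs lay, so nothing is read from that direction. The second kind stood at 25.1 CPM in olfactory neuron-like cells, inside its range over the other classes, which reached 51.1 CPM in glia-like cells. No receptor UMI was seen in 33 erythroid-like cells (exact Poisson limit 6.41 CPM).

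Within the olfactory neuron-like cells, receptor counts differed between subclusters. Subclusters 0, 3 and 4, where the precursor gene Neurod1 stood at 247 to 681 CPM, had 8.76 to 81.3 CPM of receptors. Subclusters 8 and 10, where Omp, the marker of mature neurons, stood at 133 and 366 CPM, had 2899 and 2677 CPM. The level did not follow the order of Omp: subcluster 5, with 204 CPM of Omp, had 1562 CPM of receptors, and subclusters 1 and 2, with 37.6 and 5.94 CPM of Omp, had 1748 and 1205 CPM. In subclusters 8 and 10, cells with at least 2 UMIs of 1 receptor made up 85.4% and 76.0%. They made up 61.0% in subcluster 1 and 54.9% in subcluster 5, and were 7 of 108, 2 of 54 and 0 of 53 cells in the Neurod1-high subclusters. The subclusters came from different libraries: all 25 cells of subcluster 10 were from WT replicate 1, 28 of 41 in subcluster 8 and 47 of 51 in subcluster 5 were from ProKR2iCre library 2, and subclusters 3 and 4 held no cell of either library. Between these single subclusters, subcluster and library cannot be fully told apart. Within every library, though, the positive share was higher outside the Neurod1-high subclusters than over the whole class. It was 49.5% against 33.0% in WT replicate 1, 35% against 16.5% in replicate 2 and 33.3% against 13.04% in replicate 4. No test was made.

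A cell was called receptor-positive when at least 1 receptor had 2 or more UMIs in it. By that rule 61 of 185 olfactory neuron-like cells were positive in WT replicate 1, or 33.0% (exact binomial interval 26.3 to 40.3, counting error only). The share was 16.5% (9.53 to 25.7) of 91 cells in replicate 2, 13.04% (7.49 to 20.6) of 115 cells in replicate 4 and 14.8% (4.19 to 33.7) of 27 cells in replicate 5. The WT mean was 19.3% ± 9.20 (SD, n = 4), and replicate 1 alone lay above 20%. ProKR2iCre library 1 had 30% (11.9 to 54.3) of 20 cells and library 2 had 62.7% (55.7 to 69.4) of 204 cells. Library 2 had the highest share, with no test across captures, since it is a single library. The class did not hold the same cells in each library. Subclusters 0, 3 and 4, high in Neurod1 and poor in receptors, held 41.1%, 56.04%, 63.5% and 18.5% of the class in WT replicates 1, 2, 4 and 5, 40% in library 1 and 2 of 204 cells in library 2. In the other subclusters the positive share was 49.5% (39.8 to 59.3), 35% (20.6 to 51.7), 33.3% (19.6 to 49.5) and 18.2% (5.19 to 40.3) in WT, 50% (21.1 to 78.9) in library 1 and 63.4% (56.3 to 70.02) in library 2. The interval of library 2 then overlapped those of WT replicate 1 and library 1.

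**Figure D2:**
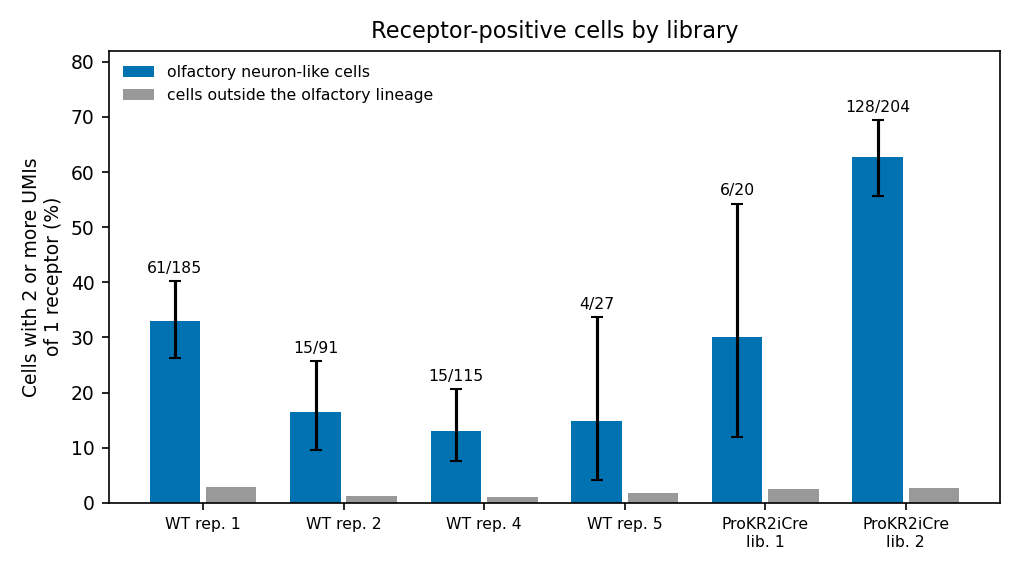
Blue bars give the percent of olfactory neuron-like cells with 2 or more UMIs of 1 receptor in each of 6 libraries, with exact 95% binomial intervals and the number of positive and of all such cells above them; grey bars give the same share in cells outside the olfactory lineage. Library 2 of the ProKR2iCre nose reaches 62.7%, and every grey bar is below 3%.

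Libraries also differed in depth. Median UMIs per olfactory neuron-like cell were 8865, 5569, 6175 and 2318 in WT replicates 1, 2, 4 and 5, 16083.5 in ProKR2iCre library 1 and 19334.5 in library 2. Library 2, library 1 and WT replicate 1 were the deepest and had the highest shares, with library 2 highest in both. Library 1 was deeper than WT replicate 1, with shares of 30% and 33.0% and overlapping intervals. Replicate 4 was deeper than replicates 2 and 5 and had the lowest share, with an interval that overlapped theirs. The order of the shares was not tested against depth. In WT replicate 5 the olfactory neuron-like cells were far shallower than its other cells, at 11387. After every cell was thinned to 5000 UMIs, the shares were 29.9%, 20.4%, 10.7% and 30% in the WT replicates, in the same order, 27.8% in library 1 and 53.8% in library 2. The interval of library 2, 46.6 to 60.9, overlapped those of library 1 (9.69 to 53.5) and WT replicate 5 (6.67 to 65.2). The value for WT replicate 5 rests on 3 of 10 cells, with 17 of its 27 left out. Between 2 and 37 shallower cells per library were left out. In cells outside the lineage, whose medians were 5087 to 13614 UMIs, 1.09% to 2.85% were positive by the same rule. At least 1 receptor UMI was seen in 6.32% to 13.7% of those cells and in 14.8% to 77.0% of olfactory neuron-like cells.

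The share of receptor UMIs that lay in olfactory neuron-like cells was 37.3% ± 14.7 (SD, n = 4) in WT. It was 44.0%, 16.8%, 37.7% and 50.7% in replicates 1, 2, 4 and 5. Library 1 had 48.4% and library 2 had 94.96%. Olfactory neuron-like cells made up 0.831% to 2.37% of kept WT cells, 1.12% of library 1 and 18.4% of library 2.

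Receptor genes were also set against the other chemoreceptor families of the nose. Trace amine-associated receptors, which share the one-receptor rule of olfactory neurons, had UMIs for 1 of 15 genes, Taar7d, with 3 UMIs. Vomeronasal receptors had 1122 UMIs over 87 of 218 Vmn1r genes and 655 over 72 of 126 Vmn2r genes. Only 4.81% and 8.85% of these UMIs lay in olfactory neuron-like cells. The Ms4a family, some members of which are receptors of other olfactory neurons, had UMIs for 19 of 19 genes, 4720 in all, and 0.233% of them lay in olfactory neuron-like cells. Formyl peptide receptors of the Fpr-rs group had no UMI in any of 4 genes.

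Olfr15 (ENSMUSG00000059043; chromosome 16, 3830878 to 3844747, plus strand, GRCm38) was the leading receptor of olfactory neuron-like cells. Its 1877 UMIs came from 42 cells, and 1863 of them lay in olfactory neuron-like cells. It had 1 UMI in each of WT replicates 1, 2 and 5, 36 UMIs in replicate 4, 11 in ProKR2iCre library 1 and 1827 in library 2. As a share of a library's receptor UMIs that was 0.0282%, 0.0791%, 0.107% and 3.40% in WT replicates 1, 2, 5 and 4, 1.52% in library 1 and 29.2% in library 2. Nearly all of the gene's counts thus came from 1 library. In library 2 Olfr15 was seen in 35 cells, reached 188 UMIs in a cell and had the most UMIs of any receptor in 22 of the 128 positive cells. In replicate 4, 35 of its 36 UMIs were in 1 cell.

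Olfr231 (ENSMUSG00000046486; chromosome 1, 174113211 to 174121162, minus strand) had 567 of its 574 UMIs in library 2, in 14 cells, and 0 to 3 UMIs in each other library. Olfr571 (ENSMUSG00000043310; chromosome 7, 102905090 to 102917536, minus strand, class I) had 252 of 265 UMIs in library 2 and 12 in WT replicate 1. Olfr1274-ps, with a pseudogene symbol, led 11 cells of library 2 and none elsewhere, at a median of 5 UMIs. Its WT count was 0 in all 4 replicates, and library 1 had 7 UMIs in 1 cell. The same 11 cells, all in subcluster 6, carried muscle genes. Each had 10 to 20 UMIs of Actc1, cardiac actin, and 2 to 19 of the troponin gene Tnnt1, and 7 of them held UMIs of Myod1. The 6 muscle markers summed to 3006 CPM in them, against 8.62 CPM in the other 193 olfactory neuron-like cells of library 2, where Actc1 did not pass 1 UMI in a cell. The 11 cells had 2 to 7 UMIs of Olfr1274-ps each, 0 to 3 of Omp and a median depth of 7745 UMIs, against 19660. Without them 60.6% of the cells of library 2 were receptor-positive. The part of muscle RNA in the count of this receptor, and whether the 11 barcodes are separate olfactory neurons, was not tested. A receptor could also stand high through 1 cell. Olfr1262 (ENSMUSG00000051313; chromosome 2, 90000145 to 90008291, plus strand) had 388 UMIs in WT replicate 5, 386 of them in 1 cell, and 0 to 3 UMIs in each other library. Olfr782 had 225 of 229 UMIs in 1 cell, Olfr959 160 of 168, Olfr1437 158 of 165 and Olfr1406 153 of 177. Olfr720, with 190 UMIs, reached 100 in a cell, and Olfr1423, with 180, reached 126. Olfr1423 has a neighbour on the other strand, Gm44859.

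The leading receptor of a whole library differed between libraries. Over all kept cells Olfr1369-ps1 led in WT replicates 1, 2 and 4, with 28.2%, 39.6% and 20.8% of receptor UMIs. Olfr1262 led in replicate 5 with 41.5%, Olfr959 in library 1 with 22.3% and Olfr15 in library 2 with 29.2%. The WT mean of the leading share was 32.5% ± 9.79 (SD, n = 4). Within olfactory neuron-like cells the leaders were Olfr1406 (9.81%), Olfr689 (14.6%), Olfr166 (21.8%) and Olfr1262 (81.4%) in WT replicates 1, 2, 4 and 5, Olfr959 (45.7%) and Olfr15 (30.6%) in libraries 1 and 2. Each positive cell was then counted once, under its own leading receptor. The commonest leader took 3 of 61, 2 of 15, 2 of 15 and 1 of 4 positive cells in WT replicates 1, 2, 4 and 5. That was 4.92%, 13.3%, 13.3% and 25%, a mean of 14.1%, and library 2 had 17.2% (22 of 128). With 4 positive cells, replicate 5 could not have a lower share, so the mean depends on cell numbers.

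Counted by cells, 229 positive olfactory neuron-like cells were led by 124 different receptors, and 86 receptors led a single cell. Olfr15 led 24 cells, Olfr1274-ps 11, Olfr571 9, Olfr231 7, Olfr655 and Olfr78 6 each and Olfr550 5. Cells led by Olfr15 held a median of 70 UMIs of it. The 95 WT cells were led by 71 receptors and the 128 cells of library 2 by 66. The 2 lists shared 16 receptors, 22.5% of the first and 24.2% of the second. WT replicate 1, with 50 leading receptors out of 178, shared 6 with replicate 2 (12% of its own and 42.9% of the other's). It shared 2 with replicate 4 (4% and 15.4%) and 1 with replicate 5 (2% and 25%). The overlap that unrelated lists of these sizes would have was not computed, so nothing is read from these shares. In WT replicate 1 alone, 50 receptors led 61 cells.

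Class I receptors led 37 of 95 WT positive cells (38.9%), by replicate 27 of 61, 7 of 15, 3 of 15 and 0 of 4. In library 1 they led 1 of 6 and in library 2 13 of 128 (10.2%). The WT cells of this class were led by 25 different receptors and those of library 2 by 4. The class I group held 31 of the 178 receptors and 129 of the 1135 Olfr genes. Olfr655, a class I receptor of the second kind, led 5 of the 37 WT cells and 1 of the 13 in library 2. Library 2 is a single library, and the difference was not tested.

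**Figure D3:**
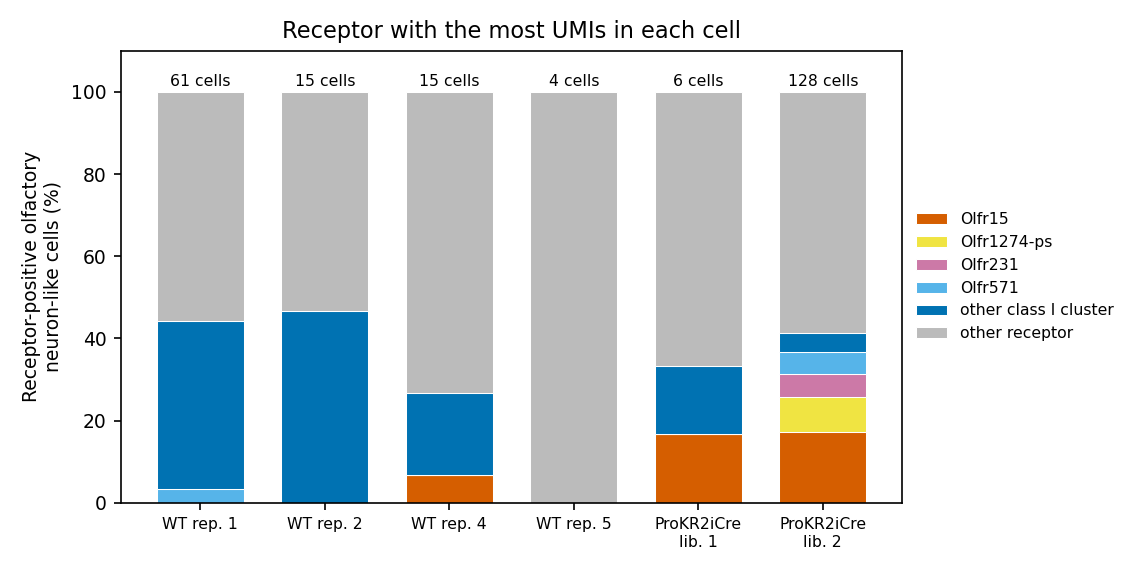
Stacked bars give, for each of 6 libraries, the percent of receptor-positive olfactory neuron-like cells led by Olfr15, Olfr1274-ps, Olfr231, Olfr571, another receptor of the class I cluster on chromosome 7, or any other receptor, with the number of cells above each bar. Olfr15 and Olfr1274-ps take 22 and 11 of the 128 cells of ProKR2iCre library 2, and class I receptors take 27 of the 61 cells of WT replicate 1.

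Most positive cells showed a single receptor. Of 229 cells, 143 held UMIs of exactly 1 receptor, 48 of 2 and 38 of 3 or more, up to 9. The share with exactly 1 was 67.2% (exact interval 54.0 to 78.7), 73.3% (44.9 to 92.2), 53.3% (26.6 to 78.7) and 100% (39.8 to 100) in WT replicates 1, 2, 4 and 5, a mean of 73.5% ± 19.6 (SD, n = 4). It was 50% (11.8 to 88.2) in library 1 and 59.4% (50.3 to 68.0) in library 2. Without the 11 cells with muscle genes, library 2 had 56.4%. The share depended on the receptors counted. With receptors of the first kind alone, it was 87.3%, 92.3%, 50% and 100% in WT replicates 1, 2, 4 and 5. Libraries 1 and 2 then had 66.7% and 66.1%. The leading receptor had a median of 20 UMIs and at most 386, and in 177 cells (77.3%) it held at least 90% of the cell's receptor UMIs. Over all libraries, cells with exactly 1 receptor had a median of 14333 UMIs in all, and those with more had 18772.5. Within libraries the medians were 10383 and 12717 in WT replicate 1, 8525 and 8853.5 in replicate 2, 7623 and 9708 in replicate 4, and 18281.5 and 19979.5 in library 2. In library 1, with 6 positive cells, the order was the reverse, at 28563 and 20269. At 5000 UMIs per cell the share with exactly 1 receptor was between 72.7% and 100% over the 6 libraries, and 83.0% in library 2.

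A second receptor at 5 or more UMIs was seen in 19 positive cells, 12 of them in library 2. A cell of library 2 held 54 UMIs of Olfr720 and 46 of Olfr1247, and another held 188 of Olfr15 and 25 of Olfr231. In WT replicate 1 a cell held 153 UMIs of Olfr1406 and 38 of Olfr874, and in replicate 4 a cell held 86 of Olfr166 and 15 of Olfr281. Members of these pairs were unlike in sequence: identity ran from 52.7% to 95.9% with a median of 55.1%, and 1 pair passed 90%. That pair was Olfr329-ps and Olfr325, printed above, with 26 and 15 UMIs. Only 3 of the 19 cells paired receptors of 1 genomic group. The 19 cells had a median depth of 22761 UMIs, against 15868.5 for the other positive cells. Removing the barcodes with the highest doublet scores took out 1 of the 19 cells, and the part of doublets was not otherwise tested.

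**Figure D4:**
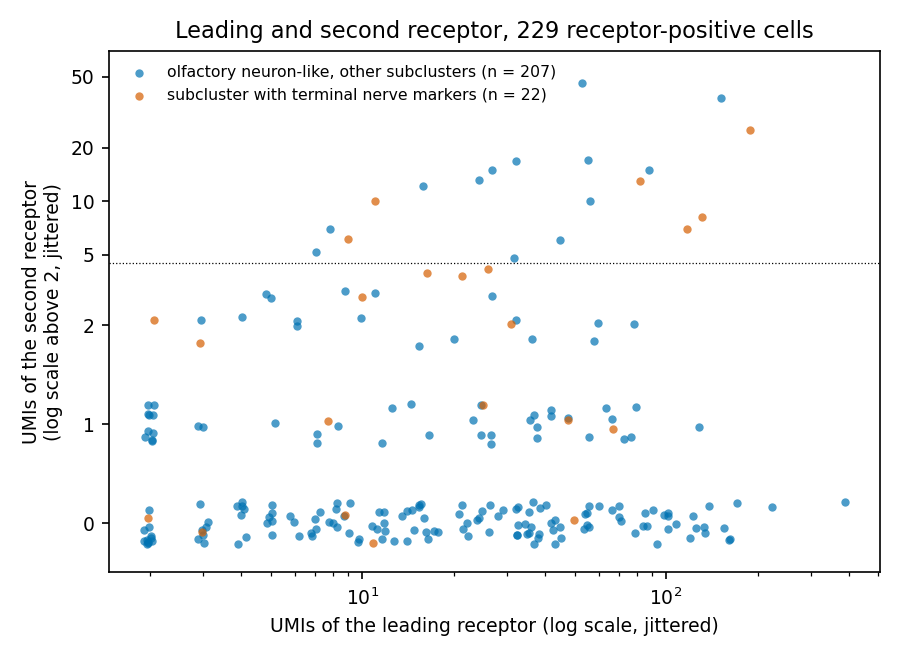
Each point is 1 of 229 receptor-positive olfactory neuron-like cells, with the UMIs of its leading receptor on the x axis (log scale) and of its second receptor on the y axis (log scale above 2, linear below), both jittered. Most cells lie at 0 or 1 UMI of a second receptor, and 19, with 5 or more, lie above the dotted line; orange points are the 22 positive cells of the subcluster with terminal nerve markers.

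Cells with several receptors were frequent in 1 subcluster. It held 45 olfactory neuron-like cells, 37 of them from library 2, and met at least 5 of 6 terminal nerve markers, among them Prokr2 and Gnrh1. The terminal nerve is the cranial nerve along which the neurons that make gonadotropin-releasing hormone reach the brain. Of its 20 positive cells in library 2, 14 (70%) held 3 or more receptors, against 14 of 108 (12.96%) positive cells elsewhere in that library. Median depths were 23838.5 and 18204 UMIs. Olfr15 led 10 of the 20 cells and Olfr571 led 5. A cell with 133 UMIs of Olfr15 had 8 of Olfr571, one with 116 had 7 of Olfr231, and one with 81 had 13 of Olfr78. These cells come from a single library, and no test was made.

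In library 2, 9 cells of this subcluster had a Gnrh1 UMI, and none held more than 1 UMI of any receptor, at a median depth of 29341 UMIs. Of these, 5 held at least 1 receptor UMI, 8 UMIs in all, 2 of them of Olfr15. The 28 cells without a Gnrh1 UMI included 20 positive cells and 728 UMIs of Olfr15. Across all libraries, 12 olfactory neuron-like cells had a Gnrh1 UMI and 6 of them held a receptor UMI. None was receptor-positive: 0 of 12 cells has an exact binomial upper limit of 26.5%, which limits cells that meet the 2 UMI rule and not cells that express a receptor.

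Receptor UMIs in library 2 were also set against Prokr2 UMIs, a description of that library. Of its olfactory neuron-like cells, 120 had no Prokr2 UMI, 42 had 1 to 4 and 42 had 5 or more. Olfr15 made up 16.9%, 50.4% and 62.2% of receptor UMIs in these sets and led 7, 6 and 9 cells. As counts, Olfr15 had 642, 633 and 542 UMIs, of 3806, 1257 and 872 receptor UMIs, and was seen in 8, 6 and 14 cells. The sets differ in size, at 120, 42 and 42 cells, so these totals are not levels per cell. Olfr571 made up 1.13%, 6.28% and 14.7%, with 43, 79 and 128 UMIs. Olfr231 did not follow that order, at 12.5%, 1.99% and 7.57%, with 475, 25 and 66 UMIs. Over the same sets, the share of positive cells was 69.2%, 57.1% and 50%, and the number of leading receptors was 56, 18 and 8. Median depth was 17096.5, 20360.5 and 24398.5 UMIs, and 0, 2 and 35 of the cells lay in the subcluster with terminal nerve markers. Depth, subcluster and Prokr2 count cannot be told apart here.

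The 48 receptors with most UMIs outside the lineage were led by Olfr1369-ps1. It was seen in 779 cells and in 28 of 29 cell classes, with 19 of its 1991 UMIs in olfactory neuron-like cells. It had 11.5, 7.45, 4.51 and 5.10 CPM in WT replicates 1, 2, 4 and 5 and 0.899 and 2.66 CPM in ProKR2iCre libraries 1 and 2. The WT values lay above both ProKR2iCre values, with 2 libraries of 1 nose on that side and no test. Pooled over libraries, the unnamed cluster 5 (17.6 CPM) and glia-like cells (15.2 CPM) stood highest, but 1357 of the 1475 cells of cluster 5 were from WT replicate 1, the library with the highest level. Among classes with at least 50 cells in a library, glia-like cells were first in WT replicates 1 (26.1 CPM) and 2 (28.7 CPM). In library 2 they were at rank 3 of 6 (1.53 CPM). WT replicates 4 and 5 and library 1 had 45, 26 and 22 glia-like cells, too few to be ranked. A count for a gene with a pseudogene symbol and a near-identical relative is uncertain as a measure of receptor messenger RNA.

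Olfr889 was highest in glia-like cells. Over whole libraries it had 0.392, 0.178, 0.185 and 0.128 CPM in WT replicates 1, 2, 4 and 5, and 4.79 and 7.0 CPM in libraries 1 and 2. The libraries of the ProKR2iCre nose were thus above all 4 WT libraries. Glia-like cells made up 0.640% to 2.16% of kept WT cells, 1.23% of library 1 and 5.58% of library 2. Within glia-like cells alone Olfr889 had 1.15 to 6.52 CPM in the WT replicates, from 1 to 8 UMIs, 88.97 CPM in library 1 (38 UMIs in 6 cells) and 78.03 CPM in library 2 (UMIs in 14 cells). Outside them it had 0.0516 to 0.306 CPM in WT, 3.58 CPM in library 1 and 0.917 CPM in library 2. Over all libraries Olfr889 stood in glia-like cells at 29.0 CPM, with 153 UMIs in 31 of 424 cells, and it reached 28 UMIs in a cell. Olfr655, a class I receptor, was highest in WT replicate 1: 359 of its 517 UMIs were in WT replicate 1, 4.14 CPM, against 0.281 to 1.46 CPM in the other WT replicates and 0.133 and 0.483 CPM in libraries 1 and 2. It led 6 olfactory neuron-like cells as well. The WT mice were of the CD1 stock and the other nose of another strain, so strain and genotype cannot be told apart.

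Some counts of the second kind sat in 1 named class. Olfr558, a class I receptor, had 12 of 22 UMIs in 8 of 231 mural-like cells, the cells around blood vessels. Olfr111 had 10 of 11 UMIs in 9 of 347 immune-like cells, and Olfr1507 had 7 of 13 in 6 of 155 muscle-like cells. Olfr644 had 8 of 10 UMIs in 8 of 1678 epithelium-like cells. All 20 UMIs of Olfr672 came from 1 sustentacular-like cell, and 14 of 23 of Olfr1420 from 1 glia-like cell. Classes were chosen for each gene as the one with its highest CPM, so these are descriptions.

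Many of the rest had 1 or 2 UMIs per cell. Olfr482, with 312 UMIs in 310 cells and 28 of 29 classes, and Olfr1124, with 224 in 216 cells and 27 classes, had nearly 1 UMI in each cell that held any. Olfr482 shares exon sequence on the same strand with Gm44870. Between 10 and 92 UMIs were counted for Olfr279, Olfr77, Olfr267, Olfr1033, Olfr920, Olfr539, Olfr57, Olfr984, Olfr275, Olfr552, Olfr1459, Olfr56, Olfr46, Olfr658, Olfr718-ps1, Olfr1238, Olfr905, Olfr66, Olfr814, Olfr212, Olfr1441, Olfr729, Olfr750, Olfr286, Olfr694, Olfr71, Olfr285, Olfr70, Olfr690, Olfr731, Olfr374, Olfr18, Olfr727, Olfr1513, Olfr338, Olfr95 and Olfr1393. Of the 48 genes of the second kind, 24 were never above 2 UMIs in a cell. Others reached more: Olfr279 had up to 6 UMIs in a cell, and 15 of the 46 UMIs of Olfr539 were in 1 cell. Olfr279, Olfr56 and Olfr1238 share exon sequence with a neighbouring gene, so their reads may belong to those genes. Olfr77 lies opposite Gm7808, which is on the other strand.

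The last comparison asked which other genes differed between receptor-positive cells and olfactory neuron-like cells with no UMI of any Olfr gene. Counts were summed per capture and side over the 4 captures with at least 10 cells on both sides (WT replicates 1, 2 and 4 and ProKR2iCre library 2, with 61 and 66, 15 and 56, 15 and 66, and 128 and 30 cells). Olfr genes were taken out. CPM of single genes in this comparison use library sizes scaled by edgeR (TMM), while the marker lists below use plain UMI totals. Of 7202 genes, 61 passed an adjusted p of 0.05 in edgeR's quasi-likelihood test (0.847%): 32 were higher in positive cells (0.444%) and 29 lower (0.403%). The median log2 fold change over all genes was -0.03. Where nothing says that captures came from separate embryos, such p-values measure the spread between captures.

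Of 12 tested genes of the transduction cascade that receptors feed, 2 rose in positive cells, Gng13 and Adcy3. Gng13, a G protein gamma subunit of olfactory cilia, stood at 1489, 615, 397 and 461 CPM in positive cells of WT replicates 1, 2 and 4 and library 2, against 268, 99.2, 23.5 and 188 CPM in negative cells. It rose by 2.41 ± 0.33 (log2, SE; n = 4 captures; adjusted p = 0.0171, edgeR with Benjamini-Hochberg). Adcy3, the adenylyl cyclase of olfactory cilia, rose by 2.02 ± 0.36 (edgeR adjusted p = 0.0373, n = 4), a call kept in 9 of the 21 other settings that gave it a value. The call of Gng13 was kept in 18 of 23. The list held 15 genes, and among the 12 tested the median log2 fold change was 1.32, and 10 were higher in all 4 captures. Of all 7202 genes, 868 were higher and 925 lower in all 4 captures. Omp, at a log2 difference of 2.01 (edgeR adjusted p = 0.0798), Ano2, the calcium-activated chloride channel, at 1.87 (0.0675), and Gnal, the olfactory G protein alpha subunit, at 1.45 (0.0597), did not pass. Nor did Gnb1 at 0.87 (0.0536), Gfy at 1.11 (0.0547), Stoml3 at 1.81 (0.171), Cnga2 at 1.18 (0.302), Pde4a at 0.75 (0.277), Ric8b at 0.63 (0.375) or Pde1c at 0.20 (0.729), by the same edgeR adjusted p-values. Stoml3 was lower in the positive cells of WT replicate 2, at 34.6 against 47.7 CPM.

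Genes of axon sorting gave 4 rises of 17 tested (21 listed) and no fall, with a list median of 0.36. They were the teneurin Tenm2 (1.82), the protocadherins Pcdh17 (1.64) and Pcdh19 (3.46) and the contactin Cntn4 (1.62), with edgeR adjusted p-values of 0.0151, 0.0171, 0.0373 and 0.0247. Their calls were kept in 19, 16, 12 and 16 of 22 or 23 other settings. Among 23 tested of 25 genes for receptor transport and choice, 2 rose and 1 fell, with a median of -0.20. Atf5 (1.11) and Ddit3 (1.69), transcription factors of the protein-folding stress response, rose (edgeR adjusted p = 0.0298 and 0.0229), calls kept in 13 and 15 of 23 other settings. Lhx2, a transcription factor needed for receptor choice, fell by 1.61 on the log2 scale (edgeR adjusted p = 0.0171). It had 299, 601, 580 and 404 CPM in positive cells and 1112, 2064, 2486 and 673 CPM in negative cells, lower in all 4 captures. The chaperones of receptor transport, Rtp1 and Rtp2, had log2 differences of 1.30 and 1.62 and did not pass (edgeR adjusted p = 0.218 and 0.168). No gene passed of 11 for immature neurons and axon growth, of 4 tested of 10 for progenitors or of 3 tested of 5 for vomeronasal neurons, with medians of 0.09, 0.32 and 0.01.

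**Figure D5:**
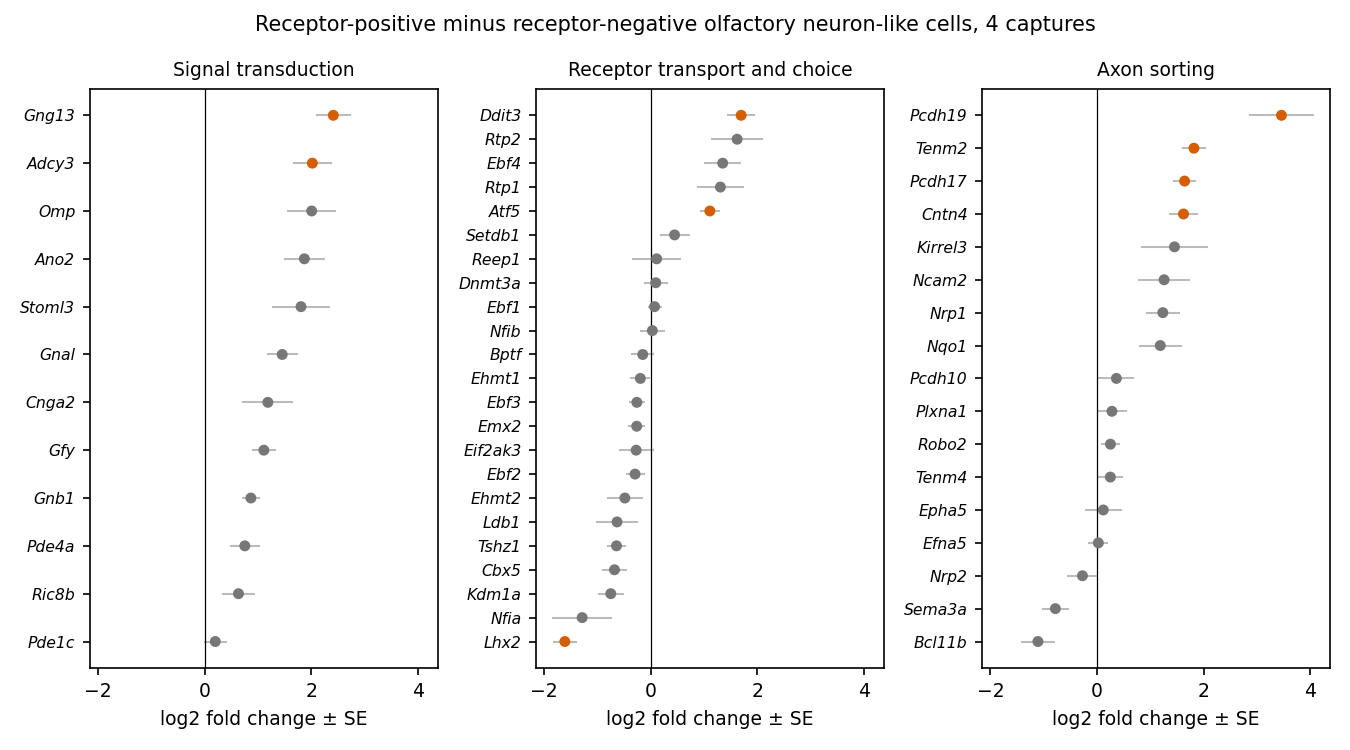
Points give the log2 fold change of receptor-positive minus receptor-negative olfactory neuron-like cells over 4 captures, with bars of 1 SE, for the tested genes of 3 lists; orange points passed an adjusted p of 0.05 in edgeR's quasi-likelihood test and grey points did not. All 12 signal transduction genes lie to the right of 0 (Pde1c lies to the left in 3 of 23 other settings), with Gng13 and Adcy3 orange.

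Outside the lists, the 10 lowest p-values among higher genes included, beside Tenm2, Pcdh17 and Gng13, Tmbim6 (2.19), Cd9 (1.17), Stk32a (1.54), Pde10a (3.44), Mef2b (2.63), Rnf185 (2.27) and Trim66 (1.91). The lower ones, beside Lhx2, were Grp (-3.56), St18 (-3.46), Gng2 (-1.76), Gnas (-1.48), Tac1 (-3.47), Ppp1r14a (-3.73), Maml3 (-1.53), Pcp4 (-2.70) and Dscaml1 (-2.09). Grp and Tac1 encode neuropeptides and Gnas encodes the stimulatory G protein alpha subunit that Gnal replaces in mature olfactory neurons. Gnas stood at 808.6 to 960.5 CPM in positive cells and at 1806 to 2929 CPM in negative cells, with no overlap.

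Marker lists of several cell types had other levels on the 2 sides. Markers of olfactory progenitors summed to 347, 559 and 203 CPM in positive cells of WT replicates 1, 2 and 4, against 801, 877 and 1106 CPM in negative cells, and went the other way in library 2, at 410 against 243 CPM. Neurod1 had 14, 0, 0 and 1 UMIs against 139, 76, 245 and 1. Markers of olfactory neurons were lower in the positive cells of WT replicates 2 (3438 against 4206 CPM) and 4 (3080 against 5270 CPM) and higher in those of replicate 1 (3580 against 2513 CPM) and library 2 (2628 against 2493 CPM). Sustentacular markers, of the supporting cells, stood at 368, 75.9 and 45.8 CPM in positive cells of WT replicates 1, 2 and 4, against 43.0, 9.82 and 12.8 CPM. In library 2 they stood at 4.57 against 5.24 CPM. Muscle markers summed to 122 against 5.24 CPM in library 2, and cartilage markers to 41.4 against 1084 CPM in WT replicate 2. Mesenchyme markers there summed to 41.4 against 321 CPM. Markers of other neurons were lower in positive cells of all 4 captures, at 112, 0, 0 and 4.57 CPM against 221, 39.3, 10.7 and 54.1 CPM. Terminal nerve markers summed to 438 to 1077 CPM against 745 to 2760 CPM, with no Gnrh1 UMI in positive cells and 658 and 111 in negative cells of WT replicate 2 and library 2. Median depth was 10828 and 7487, 8525 and 5087, 8507 and 5896, and 19267 and 19303 UMIs. The part of each in the gene differences was not tested. The count of 61 rested on the captures: it was 12 without WT replicate 1, 7 without replicate 2, 17 without replicate 4 and 613 without ProKR2iCre library 2. Without the subcluster with terminal nerve markers, 18 genes passed. Without the Neurod1-high subclusters 0, 3 and 4, 0 genes passed in edgeR (536 at an unadjusted p under 0.05). Only 3 captures then had 10 cells on both sides, since replicate 4 kept 4 negative cells. The log2 difference of Lhx2 was then -0.83 (edgeR adjusted p = 0.206) and that of Gng13 1.80 (0.0545). Without the 11 cells with muscle genes, 83 genes passed.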

How the data were processed

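The receptors, gene lists and tests were chosen with earlier results of these data known. The deposited matrices hold raw UMI counts per gene and barcode, made by the authors with Cell Ranger, per the file headers version 6.0.1 for WT replicate 1, 7.0.0 for the other WT replicates and 6.1.2 for the ProKR2iCre libraries. Per the submitters' processing notes, the tools were Cell Ranger 4 and Seurat 4.3.0 and the build was mm10. Whether intronic reads were counted is not given in the sources used here.

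Positions and coding sequences came from GENCODE M21 on GRCm38, the same assembly as mm10, and all 178 receptors matched by Ensembl identifier. Cells were scaled to 10000 UMIs, 2000 variable genes without any Olfr gene were reduced to 30 components, and cells were grouped with leidenalg 0.10.2 (20 neighbours, resolution 1). A cluster was named "-like" from 3 or more markers found in at least 10% of its cells at 1.5 times the level elsewhere. Rebuilt classes can differ from the authors'. Scrublet's automatic threshold, in scanpy 1.11.5, marked at most 0.18% of a library and was taken not to have worked, so doublets were kept and removing the highest scores was an alternative. Identity was the share of equal bases in a global alignment (Biopython 1.88), or in blastn for the nearest relative.

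Sums per capture and side were tested with edgeR 4.0.16 in R 4.3.3 (quasi-likelihood, TMM, filterByExpr, capture as a block, Benjamini-Hochberg). The block pairs both sides of the same capture, since they come from the same library. On simulated counts for this comparison, with 6762 genes, 98.8% of 85 genes changed by a log2 of 2 and 39.6% of 91 changed by 1 were recovered, with 5 false calls. DESeq2 1.42.0, other normalizations, filters, thresholds and cell sets and each capture left out were alternatives. Intervals are exact at 95% and cover counting error only. Genes were named by rule: the 15 receptors with the most UMIs, those leading a capture, those at the minimum, all with most UMIs outside the lineage, the tested list genes, and the 10 lowest p-values in each direction. Of the 70 tested list genes, the text names those that passed, the signal transduction list and Rtp1 and Rtp2, the last 2 chosen after their values were seen, and gives the others as counts and medians. Other receptors are named for what a sentence counts.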

Additional observations from a re-analysis of the deposited data

Results flagged for a closer look

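Among 21 values per library tested over the 4 WT replicates, 3 had 1 replicate far from the others, where chance marks about 1 group in 20. WT replicate 1 held 3541 receptor UMIs, against 935 to 1264 in the other 3. Per UMI of the library that was 40.8 CPM, against 18.8 to 23.9 CPM. Replicate 1 was the WT replicate counted with Cell Ranger 6.0.1, the others with 7.0.0, and whether intronic reads were counted is not given in the sources used here. The part of the software version in the higher count was not tested. It also had 61 of the 95 WT receptor-positive cells. In WT replicate 5 the leading receptor, Olfr1262, held 81.4% of the receptor UMIs of olfactory neuron-like cells, against 9.81% to 21.8% for the leaders in the other replicates, and 386 of its UMIs were in 1 cell. In WT replicate 4 Olfr15 had 36 UMIs, against 1 in each other WT replicate, and 35 of them were in 1 cell.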

How the results depend on the processing

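The number of receptors was 249 with a minimum of 5 UMIs and 131 with 20. The WT share of receptor-positive cells, 19.3%, was 32.0% with at least 1 UMI of 1 receptor, 34.0% without the subclusters high in Neurod1, and 14.8% to 21.4% when a replicate was left out. The leading receptor's share, 32.5%, was 14.1% with each positive cell counted once. That mean is over 4.92% to 25% per replicate and depends on the number of positive cells. The share of receptor UMIs in olfactory neuron-like cells, 37.3%, was 83.8% without the receptors mostly outside the lineage, an alternative chosen after seeing the data, in which the choice of receptors itself raises the share. The count of 61 genes between receptor-positive and receptor-negative cells depended on most choices. Without the replicate block, which pairs the sides of a capture, it was 0 with edgeR (411 genes at an unadjusted p under 0.05), and the cause was not tested. It was 156 with DESeq2 (58 of the 61 among them), 636 with no filter on low counts, 28 and 35 with at least 1 or 5 UMIs of 1 receptor, 119 with captures of at least 5 cells on both sides and 613 in WT captures only. Leaving out a capture gave 7 to 613. It was 28 with cells thinned to 5000 UMIs, 119 with WT replicate 3 for replicate 4, 31 at resolution 2, 211 with cells assigned singly by markers (45 of the 61 among them, and 1 of the 61 with the opposite sign) and, in alternatives added after seeing the data, 18 without the subcluster with terminal nerve markers and 0 without the subclusters high in Neurod1 (536 at an unadjusted p under 0.05), with 3 captures left. Over 23 settings, the 25 named genes past the threshold kept their direction, stayed past it in 407 values and missed it in 138. Of the 61 tested list genes that missed it, 24 had the opposite sign in 87 of 1345 values, none of these past the threshold, and 113 values passed it. Pde1c was at -0.54 with thinned cells, at -0.37 without the subclusters high in Neurod1, and from -0.033 to 0.49 when a capture was left out. WT replicate 5 and ProKR2iCre library 1 had too few positive cells for this comparison.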
